A study of Mus musculus with 17 samples.

Results

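The immediate early genes examined here were Fos, Fosb, Jun and Junb of the AP-1 family, Egr1, Egr2 and Egr3 of the EGR family, the nuclear receptor gene Nr4a1, and Ier2 and Ier3. They were taken by symbol from the B cell and the BMDC count table, and each table held 10 of them among 55491 genes. All 10 passed the filter on low counts in both tables. The RNA came from splenic B cells and from BMDC, which are dendritic cells cultured out of bone marrow. The donor animals are described as KPC mice, which develop pancreatic tumours, although the genotype label reads WT. The study asked how 2 small molecules change gene expression in these cells, MSA2, which activates the DNA-sensing adaptor STING without being a nucleotide, and IPI-549, also named eganelisib, which blocks the lipid kinase PI3Kγ. Cells received MSA2 plus IPI-549 (the combination; 2 BMDC and 3 B cell libraries), MSA2 alone (3 and 3), or neither (Control; 3 and 3). The labels give no dose, no time and no group with IPI-549 alone, and describe no purification of either cell type.

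The members fall into 4 roles. Fos (ENSMUSG00000021250, chromosome 12, 85473890 to 85477273, build GRCm38) and Fosb (ENSMUSG00000003545, chromosome 7, 19302696 to 19310051) encode Fos proteins, which bind DNA only as partners of Jun proteins. Jun (ENSMUSG00000052684, chromosome 4, 95049034 to 95052222) and Junb (ENSMUSG00000052837, chromosome 8, 84974484 to 84978718) encode those partners, and the AP-1 factor is the dimer. Egr1 (ENSMUSG00000038418, chromosome 18, 34859823 to 34864984), Egr2 (ENSMUSG00000037868, chromosome 10, 67535475 to 67542188) and Egr3 (ENSMUSG00000033730, chromosome 14, 70077203 to 70082614) encode zinc finger factors that read the same GC-rich site. Nr4a1 (ENSMUSG00000023034, chromosome 15, 101254269 to 101274795) encodes Nur77, an orphan nuclear receptor whose RNA follows antigen receptor signals in B and T cells. Ier2 (ENSMUSG00000053560, chromosome 8, 84661331 to 84662852) encodes a nuclear protein, and Ier3 (ENSMUSG00000003541, chromosome 17, 35821684 to 35822923) encodes a stress-inducible protein that affects cell survival and is a target of NF-kB.

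Immediate early genes are switched on within minutes of a stimulus, without new protein synthesis, by transcription factors already present in the cell, among them SRF with its ETS partners, CREB and NF-kB, downstream of MAP kinases. Their RNAs are short-lived, and most of their proteins are transcription factors that pass the signal on to later genes. In lymphocytes and dendritic cells they mark recent signalling through antigen or pattern receptors, and they are also known to respond to the handling of cells.

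Promoter windows from RefSeq (GRCm38.p6) were matched by symbol for 7 of the 10 members, Fos, Fosb, Jun, Junb, Egr2, Nr4a1 and Ier3. Shown are the bases before the transcript start of 4 members whose RNA behaved differently in BMDC, Fos, Jun and Ier3, which rose, and Egr2, which fell. The sequences run 5′ to 3′ on the strand of the gene. They lie at chr12:85473640-85473889 (plus strand) for Fos, chr4:95052223-95052472 (minus strand) for Jun, chr17:35821463-35821683 (plus strand) for Ier3 and chr10:67537619-67537868 (plus strand) for Egr2, a gene with several RefSeq starts, of which the one shown lies inside the longer annotated gene. The Ier3 sequence stops after 221 bases, where the annotated first exon begins, and leaves off 29 exon bases before the RefSeq start. Capitals mark the motif matches listed after the sequences.
Fos: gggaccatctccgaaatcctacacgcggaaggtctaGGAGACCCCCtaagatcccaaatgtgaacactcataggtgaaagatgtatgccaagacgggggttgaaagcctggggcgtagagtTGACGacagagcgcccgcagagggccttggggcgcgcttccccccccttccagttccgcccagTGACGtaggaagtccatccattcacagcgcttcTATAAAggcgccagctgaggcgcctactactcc
Jun: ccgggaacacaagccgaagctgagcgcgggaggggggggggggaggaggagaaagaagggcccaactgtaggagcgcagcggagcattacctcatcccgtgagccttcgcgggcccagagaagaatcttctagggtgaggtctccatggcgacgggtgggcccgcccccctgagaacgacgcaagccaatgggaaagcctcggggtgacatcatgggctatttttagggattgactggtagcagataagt
Ier3: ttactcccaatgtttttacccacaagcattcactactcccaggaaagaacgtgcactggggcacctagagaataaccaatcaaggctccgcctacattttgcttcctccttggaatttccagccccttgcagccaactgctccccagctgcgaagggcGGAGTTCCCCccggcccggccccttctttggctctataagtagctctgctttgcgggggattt
Egr2: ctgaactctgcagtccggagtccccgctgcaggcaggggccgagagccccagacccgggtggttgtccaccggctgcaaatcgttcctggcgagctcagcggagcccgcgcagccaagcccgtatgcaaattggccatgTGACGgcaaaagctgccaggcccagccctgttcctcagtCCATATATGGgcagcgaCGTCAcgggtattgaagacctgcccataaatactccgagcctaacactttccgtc
The search covered both strands of windows reaching 250 bases before the start for the CRE (TGACGTCA), its first 5 bases (TGACG, which every full CRE also holds), the AP-1 site (TGANTCA), the EGR site (GCGNGGGCG), the CArG box bound by SRF, the NF-kB site and TATAAA. It also covered the core of the ISRE, the interferon-stimulated response element. The Fos window held TGACG at positions -129 and -66 from the start, an NF-kB match at -214 and TATAAA at -33. Ier3 had an NF-kB match at -92, and Egr2 a CArG box at -72 with TGACG at -111 and, on the other strand, at -55. The Jun window held no match to these letters. No window of the 7 members held the CRE, the AP-1 site or the ISRE core, and the EGR site was found in those of Fosb and Nr4a1. Of all 32851 RefSeq windows, 17.8% held TGACG, 1.55% the CRE, 6.75% the AP-1 site, 4.70% the EGR site, 3.90% an NF-kB match, 1.47% a CArG box and 12.4% TATAAA. The ISRE core was held by 2.98% of them. These matches are a description of letters and not of binding.

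Levels are given as CPM, the usual depth-corrected unit in which the counts of a gene are divided by the library total. That total was here taken over the genes kept by the filter on low counts. It was scaled by the trimmed mean of M-values (TMM) within each cell type. Total counts over all genes ranged from 34760025 to 73166643 in BMDC and from 41093440 to 51433008 in B cells. The labels do not say whether replicates came from separate mice or cultures, so p-values measure only the spread between these libraries, which may be technical. BMDC libraries carried myeloid markers, with 12 monocyte and macrophage markers summing to 14644 to 20289 CPM and 12 dendritic cell markers to 4144 to 5251 CPM, against 32.1 to 47.7 CPM for 12 B cell markers. In the B cell set, the 12 B cell markers summed to 9001 to 9774 CPM in the combination, 4533 to 5049 CPM in MSA2 and 8879 to 9543 CPM in Control. The B cell MSA2 libraries also held markers of other cells. There, 12 T cell markers summed to 1036 to 1336 CPM, 12 neutrophil markers to 1598 to 1675 CPM and 12 monocyte markers to 1357 to 1531 CPM, against at most 7.56, 0.974 and 48.7 CPM in the combination and 33.8, 33.9 and 63.3 CPM in Control. Sorted by number, the MSA2 libraries of B cells follow every library of the other groups, and the labels do not say what the numbers stand for. All 10 erythroid and 7 mast cell and basophil markers rose in them as well.

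Per kilobase of merged exon, the scale on which genes can be compared, the 2 cell types ranked the members differently. In Control BMDC, Junb stood first at 60.2 ± 7.20 CPM per kb, followed by Ier3 at 32.6 ± 7.94 and Egr2 at 21.6 ± 3.95 CPM per kb (SD, n = 3 each), whose intervals of 1 SD overlapped. Jun followed at 19.2 ± 1.201 CPM per kb, within the spread of Egr2. Ier2 averaged 9.35 and Fos 2.61 CPM per kb there, and Nr4a1, Egr3, Fosb and Egr1 lay between 0.408 and 0.663 CPM per kb, within their spread of one another. In Control B cells, Nr4a1 led with 759 ± 179 CPM per kb and Junb followed with 601 ± 69.3 CPM per kb, within the spread of Nr4a1. Ier2 averaged 209 ± 38.3, Fos 121 ± 24.2, Fosb 110 ± 26.8 and Egr3 87.3 ± 11.7 CPM per kb, and the intervals of 1 SD of Fos, Fosb and Egr3 overlapped. Jun (49.3 ± 6.04), Egr1 (28.8 ± 15.4), Egr2 (9.19 ± 1.37) and Ier3 (0.445 ± 0.0599) closed the order in Control B cells, in CPM per kb.

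Among BMDC libraries with MSA2, Ier3 moved to the first place at 129 ± 14.2 CPM per kb, ahead of Junb at 44.4 ± 10.6, Jun at 35.4 ± 2.74 and Fos at 22.4 ± 9.93 CPM per kb (SD, n = 3). In CPM, which compares 1 gene between libraries, Fos, Fosb, Jun, Junb, Egr1, Egr3, Nr4a1 and Ier2 were higher in every B cell library than in any BMDC library. Ier3 was higher in every BMDC library than in any B cell library, and Egr2 overlapped. These cell type levels were not tested, since the tables were scaled separately.

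**Figure D1:**
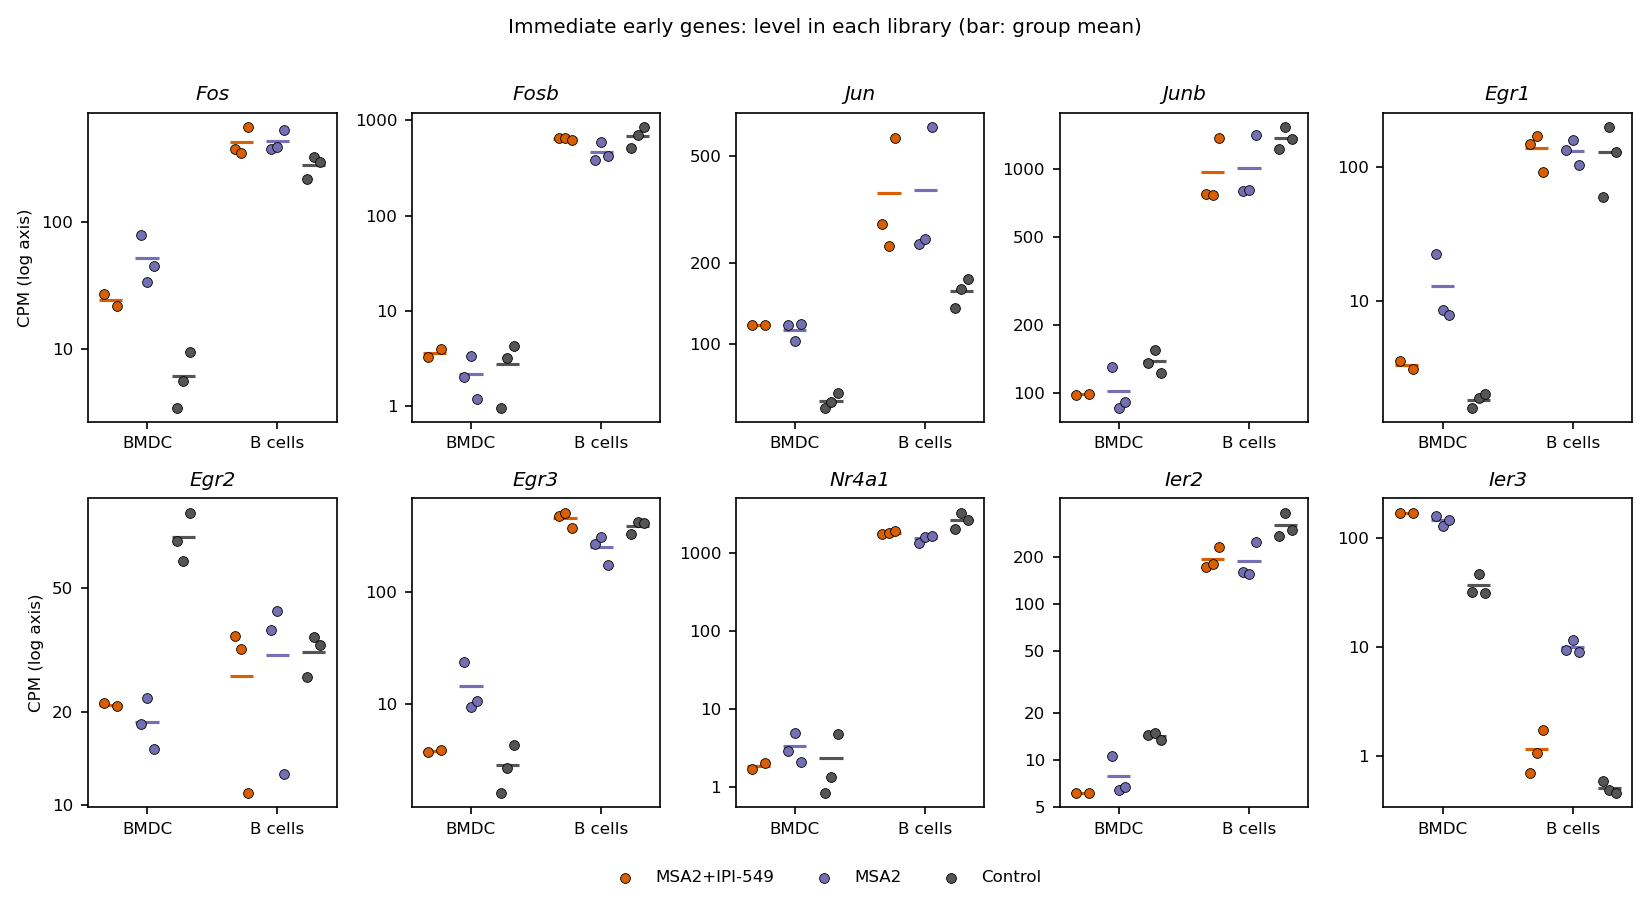
Level of each of the 10 genes in every library, in CPM on a log axis; points are libraries and bars are group means, with MSA2+IPI-549, MSA2 and Control from left to right within BMDC and within B cells. In BMDC, Fos with MSA2 lay at 34.1 to 79.0 CPM against 3.43 to 9.40 CPM in Control, while Egr2 lay at 15.1 to 22.1 CPM with MSA2 against 61.3 to 87.9 CPM in Control.

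With MSA2, the immediate early genes of BMDC split by direction. Fos, Egr1 and Egr3 rose 8.58-fold, 6.96-fold and 5.07-fold, Ier3 rose 3.93-fold and Jun rose 1.84-fold, whereas Egr2 fell 3.95-fold, Ier2 1.81-fold and Junb 1.36-fold. Of the 10 members, 8 passed edgeR's quasi-likelihood test with a Benjamini-Hochberg adjusted p under 0.05, 5 upward and 3 downward, against 28.2% of the 14614 genes tested, 14.6% upward and 13.5% downward. With the combination, Fos, Jun and Ier3 rose and Egr2 and Ier2 fell against Control, 3 upward and 2 downward of 10, where 12.9% of all genes were called, 7.51% upward and 5.38% downward. Egr1 and Egr3 were not called against Control with the combination. The median log2 fold change of the members was 0.71 with MSA2 and 0.39 with the combination, against -0.01 and 0.01 for all genes tested. Both comparisons use the same Control libraries. The members were chosen with earlier results of these data known. Counts of called members, here and below, therefore stand beside the shares of all genes as a description only. In bulk RNA, fewer cells of a type and less RNA per cell cannot be told apart.

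Among the AP-1 genes of BMDC, Fos measured 27.0 and 22.1 CPM with the combination, 79.0, 34.1 and 45.3 CPM with MSA2, and 3.43, 5.603 and 9.40 CPM in Control. All treated libraries lay above all Control libraries, and both combination libraries lay below the 3 MSA2 libraries. The log2 fold change against Control was 3.10 ± 0.35 with MSA2 (SE, edgeR adjusted p = 6.31e-05) and 2.003 ± 0.38 with the combination (edgeR adjusted p = 0.00452). Without combination replicate 1, the value was 1.85 and was no longer called (edgeR adjusted p = 0.0531). Jun measured 118 and 118 CPM with the combination, 118, 103 and 118 CPM with MSA2, and 57.8, 60.7 and 65.4 CPM in Control. The treated groups overlapped each other and lay apart from Control, with log2 fold changes of 0.88 ± 0.07 for MSA2 (edgeR adjusted p = 4.87e-06) and 0.94 ± 0.08 for the combination (edgeR adjusted p = 1.13e-05). An antisense gene, Junos, shares 232 exon bases with Jun, and since the strand of the libraries is not stated its reads may be mixed with those of Jun. Junos was counted at 1.87 to 2.81 CPM in BMDC and was not called there (log2 fold change with MSA2 -0.08 ± 0.19, edgeR adjusted p = 0.819).

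Junb moved the other way in BMDC. It measured 97.4 and 99.1 CPM with the combination, 130.1, 85.6 and 90.9 CPM with MSA2, and 136, 156 and 123 CPM in Control. MSA2 replicate 1 lay within the Control range, and the other treated libraries lay below it. The log2 fold change was -0.44 ± 0.14 with MSA2 (edgeR adjusted p = 0.0357) and -0.50 ± 0.16 with the combination (edgeR adjusted p = 0.0653). The MSA2 call was lost in 7 of 17 alternatives, among them leaving out any MSA2 library but replicate 1 or either of Control replicates 1 and 2, with values between -0.45 and -0.32. Junb shares 173 exon bases with Prdx2 on the opposite strand, which was counted at 222 to 271 CPM in BMDC. The log2 fold change of Prdx2 with MSA2 was 0.03 ± 0.08 there (edgeR adjusted p = 0.852). Fosb was low, with 3.28 and 3.98 CPM in the combination, 2.03, 3.36 and 1.196 CPM in MSA2, and 0.965, 3.18 and 4.27 CPM in Control. Its groups overlapped and it was not called with MSA2 (log2 fold change -0.32 ± 0.45, edgeR adjusted p = 0.653).

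The EGR genes of BMDC did not follow one pattern. Egr1 measured 3.53 and 3.09 CPM with the combination, 22.2, 8.52 and 7.85 CPM with MSA2, and 1.59, 1.88 and 2.02 CPM in Control. The 3 groups did not overlap, and MSA2 replicate 1 stood highest. Its log2 fold change against Control was 2.80 ± 0.38 with MSA2 (edgeR adjusted p = 0.000223), and 2.16 without MSA2 replicate 1. With the combination it was 0.85 ± 0.44 (edgeR adjusted p = 0.255), a value that was called in 3 of 17 alternatives. Egr3, which acts beside Egr2 as a brake on T cell activation in mice, measured 3.73 and 3.86 CPM with the combination, 23.6, 9.44 and 10.6 CPM with MSA2, and 1.59, 2.69 and 4.27 CPM in Control. MSA2 libraries lay above all others, and the combination overlapped Control. The log2 fold change was 2.34 ± 0.38 with MSA2 (edgeR adjusted p = 0.000782; 1.81 without MSA2 replicate 1) and 0.42 ± 0.45 with the combination (edgeR adjusted p = 0.622).

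Egr2 had the opposite direction in BMDC, with 21.4 and 20.8 CPM in the combination, 18.3, 22.1 and 15.1 CPM in MSA2, and 71.3, 61.3 and 87.9 CPM in Control. Every treated library lay below every Control library. The log2 fold change was -1.98 ± 0.15 with MSA2 (edgeR adjusted p = 2.5e-06) and -1.80 ± 0.17 with the combination (edgeR adjusted p = 3.29e-05), and both calls held in all 17 alternatives. So in the same MSA2 libraries Egr1 and Egr3 rose while Egr2 fell.

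Of the remaining members in BMDC, Ier3 measured 169.6 and 172 CPM with the combination, 160.4, 128 and 148 CPM with MSA2, and 32.2, 47.3 and 31.3 CPM in Control. Both treatments lay above Control, with log2 fold changes of 2.21 ± 0.15 for the combination (edgeR adjusted p = 2.78e-06) and 1.97 ± 0.14 for MSA2 (edgeR adjusted p = 1.98e-06). Ier2 measured 6.08 and 6.09 CPM with the combination, 10.6, 6.42 and 6.73 CPM with MSA2, and 14.5, 14.8 and 13.4 CPM in Control. All treated libraries lay below Control, by -1.23 ± 0.19 for the combination (log2, edgeR adjusted p = 0.00135) and -0.86 ± 0.16 for MSA2 (edgeR adjusted p = 0.00223). Nr4a1 was low, with 1.72 and 2.02 CPM in the combination, 2.92, 4.89 and 2.09 CPM in MSA2, and 0.823, 1.34 and 4.81 CPM in Control. Control replicate 3 overlapped the treated range. The log2 fold change with MSA2 was 0.55 ± 0.51 (edgeR adjusted p = 0.478), and 1.61 without that library (edgeR adjusted p = 0.00824).

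The last BMDC comparison asked what IPI-549 added to MSA2. None of the 10 members and 0% of the 14614 genes passed edgeR's test. At an unadjusted p under 0.05 there were 3 members and 1594 genes, DESeq2 called 1 member and 162 genes, and limma-voom 0 members and 3 genes. Of these members, Egr1 had a log2 fold change of -1.94 ± 0.41 (edgeR adjusted p = 0.174), Egr3 of -1.92 ± 0.42 (edgeR adjusted p = 0.186) and Fos of -1.10 ± 0.36 (edgeR adjusted p = 0.332), with both combination libraries below all 3 MSA2 libraries for each. Egr1 was the member DESeq2 called (log2 fold change -1.97, adjusted p = 0.0239). In edgeR it was called without MSA2 replicate 1 (-1.31, adjusted p = 0.0257) or without MSA2 replicate 2 (-2.18, adjusted p = 0.0438), where Egr3 was called as well (-2.17, adjusted p = 0.0466). Jun, Junb, Egr2 and Ier3 had log2 differences between -0.06 and 0.23, with SE of 0.08 to 0.17.

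**Figure D2:**
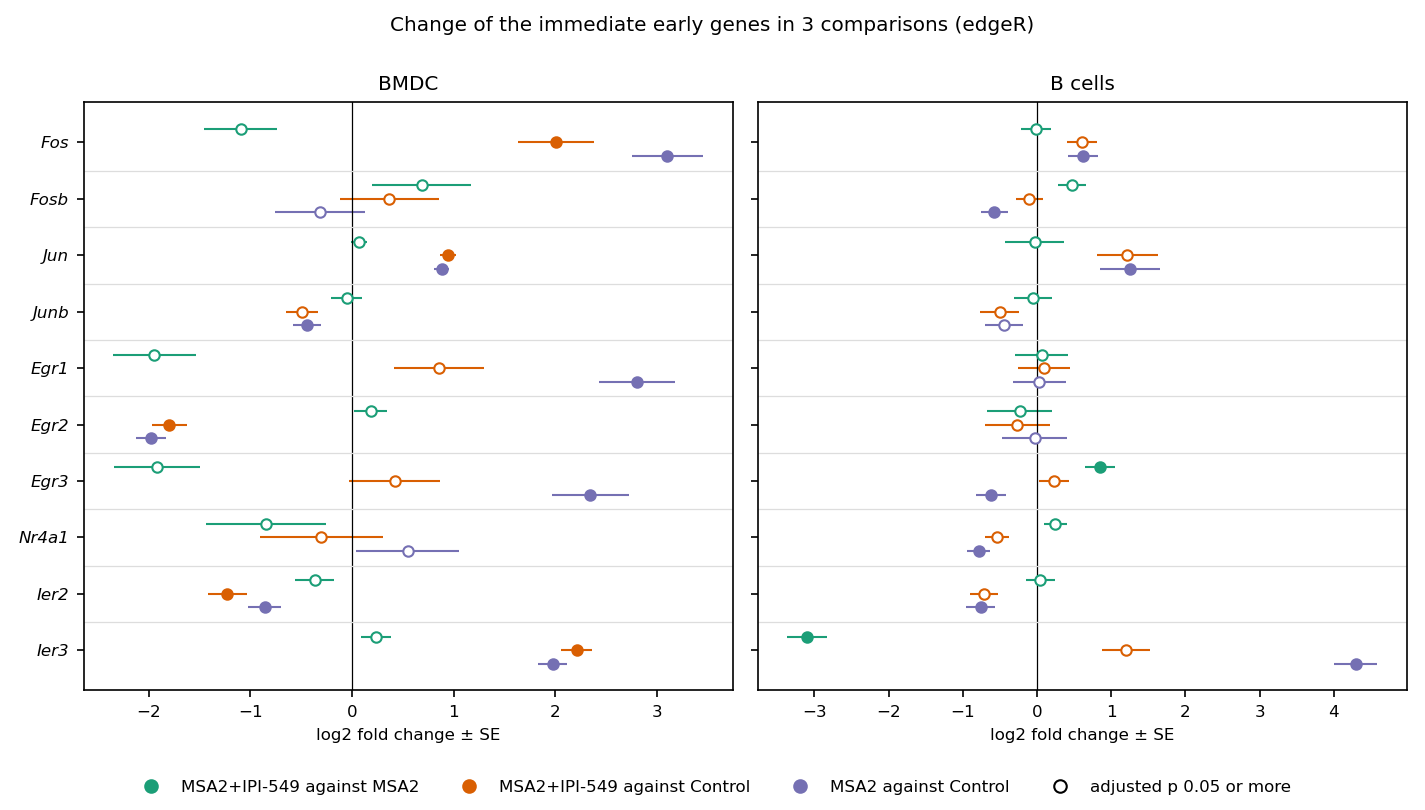
Log2 fold change ± SE of the 10 genes from edgeR in BMDC (left) and B cells (right), for MSA2+IPI-549 against MSA2, MSA2+IPI-549 against Control and MSA2 against Control; filled points have an adjusted p under 0.05. In BMDC, Egr1 and Egr3 with MSA2 stand at 2.80 and 2.34 and Egr2 at -1.98, and in B cells Ier3 with MSA2 stands at 4.29.

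In B cells with MSA2, Fos, Jun and Ier3 rose and Fosb, Egr3, Nr4a1 and Ier2 fell. These 7 of 10 members were called by edgeR, 3 upward and 4 downward, against 43.4% of the 16180 genes tested, 24.9% upward and 18.5% downward. Ier3 rose 19.6-fold, Jun 2.38-fold and Fos 1.54-fold, while Nr4a1 fell 1.73-fold, Ier2 1.69-fold, Egr3 1.54-fold and Fosb 1.49-fold. The median log2 fold change was -0.24 over the members and -0.01 over all genes. In the same comparison all 12 B cell markers fell (median log2 fold change -0.91) and all 12 T cell, 12 monocyte, 12 neutrophil and 9 NK cell markers rose, so these markers moved with the members, and their part in the members' changes was not tested. In all Control libraries 1 of 7 mast cell and basophil markers, Cpa3, and 1 of 12 neutrophil markers, Elane, were at 0. The full lists summed there to 1.97 to 2.79 CPM and 2.16 to 33.9 CPM. The number of members called was 4 without Control replicate 2, 3 without Control replicate 3 and 4 without MSA2 replicate 3.

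Among the AP-1 genes of B cells, Fos measured 382, 352 and 567 CPM with the combination, 379, 397 and 533 CPM with MSA2, and 221, 330.3 and 301 CPM in Control. Treated libraries lay above Control, and the log2 fold change with MSA2 was 0.62 ± 0.20 (edgeR adjusted p = 0.0295). Without MSA2 replicate 3 it was 0.46 and was no longer called (edgeR adjusted p = 0.0954), and the call was also lost without Control replicate 1 or Control replicate 3. Jun measured 279, 231 and 586 CPM with the combination, 235, 245 and 642 CPM with MSA2, and 137, 160.1 and 175 CPM in Control. Replicate 3 of each treatment stood far above the other treated libraries, which themselves lay above Control. The log2 fold change with MSA2 was 1.25 ± 0.41 (edgeR adjusted p = 0.0283). It was 0.62 without MSA2 replicate 3 (edgeR adjusted p = 0.128), and the call was also lost when any 1 of the Control libraries was left out and with DESeq2 (adjusted p = 0.0567).

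Junb in B cells measured 778, 769 and 1381 CPM with the combination, 804, 809.9 and 1430.2 CPM with MSA2, and 1229, 1547 and 1370.4 CPM in Control. Replicates 1 and 2 of both treatments lay well below Control and replicate 3 lay within it, and the log2 fold change with MSA2 was -0.45 ± 0.26 (edgeR adjusted p = 0.196). Without MSA2 replicate 3, Junb was called at -0.77 (edgeR adjusted p = 0.0198). Its overlapping neighbour Prdx2, at 57.9 to 103 CPM in B cells, rose with MSA2 (log2 fold change 0.53 ± 0.08, edgeR adjusted p = 0.000319). Without strand the reads of the shared bases cannot be told apart. Fosb measured 648, 649 and 626 CPM with the combination, 379.6, 587 and 419.9 CPM with MSA2, and 512, 705 and 846 CPM in Control. MSA2 and Control overlapped, with a log2 fold change of -0.57 ± 0.19 (edgeR adjusted p = 0.0275). The Fosb call was lost in 7 of 19 alternatives, including no scaling of the libraries (-0.47, edgeR adjusted p = 0.0933) and leaving out Control replicate 2 or 3 or MSA2 replicate 1 or 3.

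Among the EGR genes of B cells, Egr3 alone was called with MSA2, downward. It measured 476, 509 and 367 CPM with the combination, 269, 310.1 and 172 CPM with MSA2, and 326, 422 and 407 CPM in Control. MSA2 libraries lay below all others, with a log2 fold change against Control of -0.62 ± 0.20 (edgeR adjusted p = 0.0258). That call was lost without MSA2 replicate 3, without Control replicate 2 or 3, and with no scaling. Egr1 measured 149, 171 and 92.2 CPM with the combination, 134, 157 and 103 CPM with MSA2, and 59.7, 198 and 129 CPM in Control. The Control libraries alone spanned a wider range than all treated ones, and the log2 fold change with MSA2 was 0.03 ± 0.35 (edgeR adjusted p = 0.955). Egr2 measured 35.1, 31.9 and 10.9 CPM with the combination, 36.8, 42.3 and 12.6 CPM with MSA2, and 25.98, 34.9 and 32.9 CPM in Control. Replicate 3 of each treatment was the lowest of all, and the log2 fold change with MSA2 was -0.03 ± 0.44 (edgeR adjusted p = 0.964).

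Nr4a1, which antigen receptor signals raise in B cells, measured 1754, 1829 and 1909 CPM with the combination, 1362, 1611 and 1652 CPM with MSA2, and 2055, 3312 and 2623 CPM in Control. All treated libraries lay below all Control libraries, and with MSA2 the log2 fold change was -0.79 ± 0.16 (edgeR adjusted p = 0.00183), called in all 19 alternatives. The B cell markers in the same libraries had a median log2 fold change of -0.91. With the combination that median was 0.01, and Nr4a1 was at -0.54 ± 0.16 and not called (edgeR adjusted p = 0.202). The part of other cells in the Nr4a1 values was not tested. Ier2 measured 172, 181 and 229 CPM with the combination, 161, 154 and 250.4 CPM with MSA2, and 273, 384 and 299 CPM in Control. Again every treated library was below Control, by -0.76 ± 0.19 with MSA2 (log2, edgeR adjusted p = 0.00837).

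Ier3 had the lowest level of the members in Control B cells, per kilobase as above. It measured 0.693, 1.05 and 1.74 CPM with the combination, 9.30, 11.6 and 8.92 CPM with MSA2, and 0.579, 0.481 and 0.450 CPM in Control. MSA2 libraries stood apart from both other groups, with a log2 fold change against Control of 4.29 ± 0.30 (edgeR adjusted p = 4.93e-07). The monocyte markers of these libraries summed to 1357 to 1531 CPM with MSA2 against 44.1 to 63.3 CPM in Control, and Ier3 in BMDC, which express those markers, was at 31.3 to 172 CPM. The part of other cells in the Ier3 values was not tested.

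With the combination, no member was called against Control in B cells, where 1.06% of genes were called. At an unadjusted p under 0.05 there were 5 members and 1563 genes, DESeq2 called 3 members and 391 genes, and limma-voom 0 members and 169 genes. Those 5 were Ier3 (log2 fold change 1.197 ± 0.32, edgeR adjusted p = 0.149), Ier2 (-0.71 ± 0.19, edgeR adjusted p = 0.159), Nr4a1 (-0.54 ± 0.16, edgeR adjusted p = 0.202), Fos (0.61 ± 0.20, edgeR adjusted p = 0.316) and Jun (1.22 ± 0.41, edgeR adjusted p = 0.317). For Ier2 and Nr4a1 every combination library lay below every Control library, and for Fos and Jun every one lay above. In contrast to MSA2, the combination libraries had B cell markers at Control levels. Their 12 T cell markers summed to 6.62 to 7.56 CPM and their 12 neutrophil markers to 0.506 to 0.974 CPM. Of each list 1 gene was at 0 in all of them, Cd3e and Elane, and Elane was at 0 in all Control libraries too.

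Between the combination and MSA2 in B cells, 2 of 10 members were called, 1 in each direction, against 37% of all genes, 14.1% higher and 22.9% lower. Egr3 was higher with the combination (log2 fold change 0.85 ± 0.20, edgeR adjusted p = 0.00575) and Ier3 was lower (-3.10 ± 0.27, edgeR adjusted p = 3.24e-06). Both calls held in all 19 alternatives, across which Egr3 ranged from 0.64 to 1.04 and Ier3 from -3.58 to -2.82. Fosb did not pass the test (0.47 ± 0.19, edgeR adjusted p = 0.069). It was called higher with the replicate number as a block (0.50 ± 0.16, edgeR adjusted p = 0.0316), a pairing taken from the data that is uncertain for replicates 1 and 2. Fos, Jun, Junb and Ier2 had log2 differences of -0.06 to 0.04, with SE of 0.19 to 0.40. Another scaling of the libraries moved the median of all genes in this comparison by up to 0.11. All 12 B cell markers were higher with the combination than with MSA2 (median log2 fold change 0.92), and their part in the Egr3 difference was not tested.

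The third replicates of both B cell treatments stood apart from replicates 1 and 2 for Jun, Junb, Fos, Ier2 and the EGR genes, in the same direction in both treatments. Relative to the mean of replicates 1 and 2, Jun in replicate 3 was 2.30 times as high in the combination and 2.67 times in MSA2, against 1.18 times in Control. Junb stood at 1.78 and 1.77 times against 0.988 in Control, Fos at 1.55 and 1.37 times against 1.09, and Ier2 at 1.299 and 1.59 times against 0.910. The EGR genes went the other way, with Egr2 at 0.325 and 0.318 times against 1.08 in Control. Egr3 stood at 0.745 and 0.595 times against 1.09, and Egr1 at 0.576 and 0.709 times against 1.003. For Egr1 that Control ratio rests on a mean of 59.7 and 198 CPM. Egr1 in replicate 3 of the combination and of MSA2, at 92.2 and 103 CPM, lay within this Control range. Nr4a1 at 1.07 and 1.11 times against 0.977 and Fosb at 0.965 and 0.869 times against 1.39 lay closer to their other treated replicates. Ier3 differed between the treatments, at 1.99 times in the combination and 0.853 times in MSA2 against 0.848 in Control. Heat shock genes, which encode chaperones induced by heat and other stress, were high in the same 2 libraries. Hspa1a, the inducible HSP70 gene, was at 1.97 and 2.07 times against 1.37 in Control, and Dnajb1, its co-chaperone, at 2.25 and 3.03 times against 1.21. The list of 12 heat shock genes summed to 8896, 9110.5 and 13574 CPM in the combination, 9665, 8726 and 16266 CPM in MSA2, and 7790.0, 8622 and 9700.4 CPM in Control. Its part in the AP-1 values was not tested.

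Both of these libraries were then left out, a choice made after their values for these genes were seen. Leaving out outlying values narrows the spread of the same genes, so the p-values that follow describe the remaining libraries and are no test. Junb was then called lower with MSA2 (log2 fold change -0.77 ± 0.11, edgeR adjusted p = 0.000234). Egr2, at -0.03 with all libraries, was called higher at 0.35 ± 0.12 (edgeR adjusted p = 0.0396), and Fosb lost its call (-0.50, edgeR adjusted p = 0.0708). Jun was then higher with MSA2 by 0.62 ± 0.11 (edgeR adjusted p = 0.00119). Against Control, the combination then had 3 members called, Jun at 0.71 (edgeR adjusted p = 0.00854), Junb at -0.83 (edgeR adjusted p = 0.00275) and Ier2 at -0.84 (edgeR adjusted p = 0.00791). Calls over all genes also changed in that comparison, to 245 from 171 with all libraries.

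**Figure D3:**
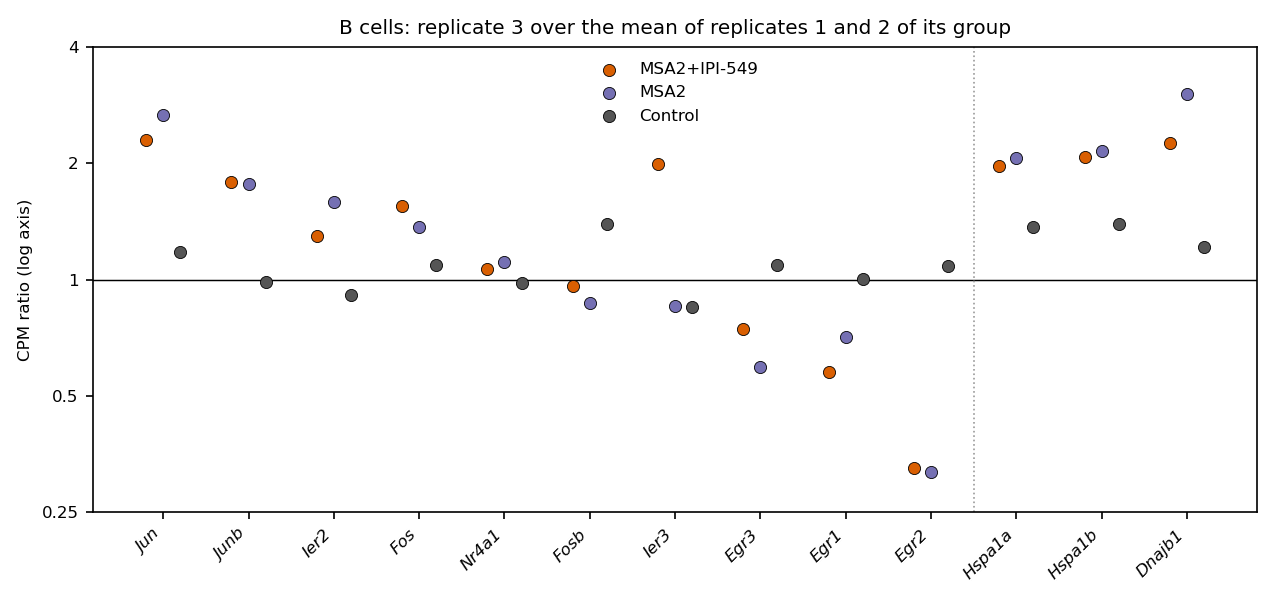
Ratio of B cell replicate 3 to the mean of replicates 1 and 2 of its group, in CPM on a log axis, for the 10 immediate early genes and, right of the dotted line, 3 heat shock genes; points are MSA2+IPI-549, MSA2 and Control. Jun stands at 2.30 and 2.67 and Egr2 at 0.325 and 0.318 in the treated groups, whereas Control stands at 1.18 and 1.08.

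The 2 cell types were then compared in 1 fit of all 6 groups, in which the response of BMDC minus that of B cells was tested. For MSA2 against Control, 6 of 10 members differed, 4 upward and 2 downward, against 37% of the 17740 genes tested, 16.3% upward and 20.7% downward. The response was higher in BMDC for Egr3 (log2 difference 2.97 ± 0.45, edgeR adjusted p = 3.95e-05), Egr1 (2.77 ± 0.61, edgeR adjusted p = 0.00144), Fos (2.49 ± 0.44, edgeR adjusted p = 0.000207) and Nr4a1 (1.37 ± 0.52, edgeR adjusted p = 0.0475). It was lower in BMDC for Ier3 (-2.31 ± 0.33, edgeR adjusted p = 2.23e-05) and Egr2 (-1.94 ± 0.51, edgeR adjusted p = 0.00606). Egr3 rose in BMDC and fell in B cells. The Nr4a1 difference did not pass in 16 of 26 alternatives, among them DESeq2 (adjusted p = 0.172) and the fit without BMDC MSA2 replicate 2 (0.93, edgeR adjusted p = 0.221). Jun, Junb, Fosb and Ier2 had differences of -0.37 to 0.29, with SE of 0.28 to 0.48.

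For the combination against Control, no member differed between the cell types, where 3.04% of genes did. At an unadjusted p under 0.05 there were 3 members and 2448 genes, while DESeq2 called 0 members and 888 genes and limma-voom 0 members and 439 genes. These were Fos (1.36 ± 0.46, edgeR adjusted p = 0.152), Egr2 (-1.56 ± 0.55, edgeR adjusted p = 0.169) and Ier3 (0.98 ± 0.41, edgeR adjusted p = 0.281). For the combination against MSA2, 3 members differed, 1 upward and 2 downward, against 24.1% of genes, 15.3% upward and 8.83% downward. The difference was negative for Egr3 (-2.80 ± 0.48, edgeR adjusted p = 0.000219) and Egr1 (-2.03 ± 0.63, edgeR adjusted p = 0.0238) and positive for Ier3 (3.29 ± 0.30, edgeR adjusted p = 8.2e-08). In B cells Egr3 was called higher with the combination than with MSA2, whereas its own difference in BMDC (-1.92) was not called. The Egr1 difference between the cell types lost its call in 5 of 26 alternatives, namely limma-voom (-1.79, adjusted p = 0.152) and, in edgeR, without BMDC combination replicate 1 (adjusted p = 0.077) or 2 (adjusted p = 0.111), without BMDC MSA2 replicate 1 (-1.40, adjusted p = 0.0741) or without B cell combination replicate 2 (adjusted p = 0.0523). The Ier3 differences include the B cell MSA2 libraries with markers of other cells.

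Other AP-1 genes and their partners were followed as a list of 11, of which 10 were tested in BMDC. Counts for this and the later lists stand beside the share of all genes called, 28.2% in BMDC and 43.4% in B cells with MSA2. With the combination that share was 12.9% in BMDC and 1.06% in B cells against Control, and 0% and 37% against MSA2. With MSA2 in BMDC, 5 rose and 2 fell, and the list had a median of 0.37 on the log2 scale. The small Maf genes Maff (log2 fold change 2.05 ± 0.21, edgeR adjusted p = 2.55e-05) and Mafk (1.302 ± 0.12, edgeR adjusted p = 1.41e-05) rose, as did the stress factor gene Atf3 (1.66 ± 0.21, edgeR adjusted p = 0.000149). Atf3 in BMDC measured 255 and 232 CPM with the combination, 595, 383 and 412 CPM with MSA2, and 116, 122 and 201 CPM in Control. The Fos relative Fosl2 fell (-1.22 ± 0.10, edgeR adjusted p = 6.76e-06), and so did the third Jun gene, Jund (-0.61 ± 0.11, edgeR adjusted p = 0.00142). With the combination, 3 rose, led by Maff (1.43 ± 0.22, edgeR adjusted p = 0.00136) and Mafk (0.91 ± 0.13, edgeR adjusted p = 0.000891), and Fosl2 fell (-1.21 ± 0.12, edgeR adjusted p = 4.29e-05). Between the combination and MSA2 none of the 10 was called.

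In B cells with MSA2, 5 of the 11 rose and none fell, with a median of 0.35. These were Batf2, Jdp2, Fosl2, Batf3 and Atf3, with log2 fold changes of 4.24, 2.29, 2.23, 1.66 and 0.80. Fosl2 measured 88.2, 95.7 and 109 CPM with the combination, 459, 542 and 636 CPM with MSA2, and 109, 121 and 120.2 CPM in Control. It thus rose in B cell libraries with MSA2 (2.23 ± 0.12, edgeR adjusted p = 1.04e-07), which also carried the other cells' markers, and fell in BMDC, a difference between the cell types of -3.44 ± 0.18 (BMDC minus B cells, edgeR adjusted p = 4.4e-11). Batf2 stayed under 0.5 CPM in every B cell library. With the combination, Atf3 alone was called (1.36 ± 0.14, edgeR adjusted p = 0.000279). It measured 419, 378 and 304 CPM with the combination, 258, 256 and 232 CPM with MSA2, and 119, 147 and 162 CPM in Control, so that the 3 groups did not overlap and the combination was also above MSA2 (0.56 ± 0.13, edgeR adjusted p = 0.00614). Between the combination and MSA2, 2 of the 11 were higher, Atf3 and Mafk, and 5 were lower, led by Batf2, Fosl2, Jdp2 and Batf3 at -4.19, -2.48, -2.44 and -1.80.

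Of the other EGR and NR4A genes and the EGR corepressors Nab1 and Nab2, 4 were tested in BMDC and 5 in B cells. With MSA2 in BMDC, 3 rose and none fell, the NR4A genes Nr4a2 (log2 fold change 1.37 ± 0.36, edgeR adjusted p = 0.0146) and Nr4a3 (1.103 ± 0.09, edgeR adjusted p = 6.07e-06) and Nab1 (0.48 ± 0.07, edgeR adjusted p = 0.00045). With the combination, Nr4a3 (0.86 ± 0.10, edgeR adjusted p = 0.000173) and Nab1 (0.27 ± 0.08, edgeR adjusted p = 0.0425) rose. In B cells with MSA2, Nr4a3 (1.03 ± 0.16, edgeR adjusted p = 0.000283) and Nr4a2 (0.45 ± 0.11, edgeR adjusted p = 0.00624) rose while Nab2 fell (-1.02 ± 0.15, edgeR adjusted p = 0.000242). Both NR4A relatives thus went the opposite way to Nr4a1 in these libraries, which also carried the other cells' markers. The part of other cells in these values was not tested. With the combination in B cells, none of the 5 was called against Control. Against MSA2, Nr4a3 (-0.88 ± 0.16, edgeR adjusted p = 0.000897) and Nr4a2 (-0.70 ± 0.11, edgeR adjusted p = 0.000364) were lower.

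**Figure D4:**
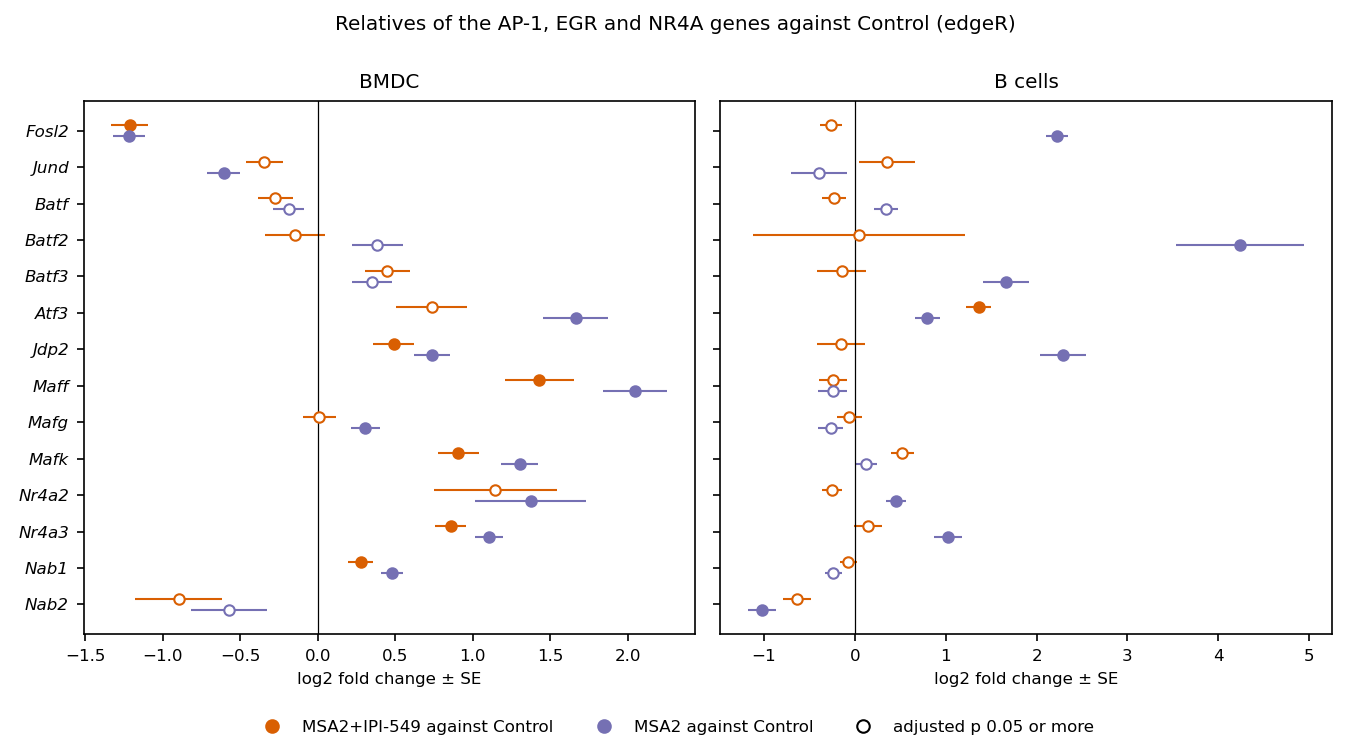
Log2 fold change ± SE from edgeR of 14 relatives of the AP-1, EGR and NR4A genes in BMDC (left) and B cells (right), for MSA2+IPI-549 against Control and MSA2 against Control; filled points have an adjusted p under 0.05. Fosl2 stands at -1.22 with MSA2 in BMDC and at 2.23 with MSA2 in B cells.

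Genes upstream of the members, 16 transcription factors and kinases such as SRF, the ETS partners and MAP kinases, had median log2 fold changes of 0.01 in BMDC and 0.04 in B cells with MSA2. In BMDC, 5 rose and 3 fell, the largest being Creb1, Mapk8, Elk4 and Elk1 at log2 fold changes of 0.54, 0.47, 0.46 and 0.46, while the SRF cofactor genes Mrtfa and Mrtfb (-0.40 and -0.31) and the kinase gene Rps6ka1 (-0.20) fell. With the combination Creb1 and Mapk14 rose by 0.34 and 0.31. In B cells, 6 rose and 3 fell with MSA2, led by Rps6ka1 at 0.74 and Mrtfa at 0.60, with Map2k1 (-0.48), Elk1 (-0.37) and Mapk8 (-0.20) lower. None was called with the combination against Control, and 5 were higher and 5 lower than with MSA2.

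A list of 33 other immediate early genes held, in BMDC, larger fold changes against Control than the other lists of related genes. In BMDC with MSA2, 12 rose and 12 fell (median 0.02), the largest being Cd69, an early activation antigen (log2 fold change 5.72), Ppp1r15a, which encodes the stress phosphatase subunit GADD34 (4.93), Tnfaip3, which encodes the NF-kB brake A20 (4.21), and Csrnp1 (3.57). With the combination in BMDC, 9 rose and 11 fell, with Cd69 at 5.18, Ppp1r15a at 4.87, Tnfaip3 at 3.66 and Trib1 at -3.19. In B cells with MSA2, 12 rose and 5 fell (median 0.13), led by Ppp1r15a (2.90), Errfi1 (2.12), Tnfaip3 (1.65) and Arc (1.57), with Ier5l, Dusp2, Sik1, Btg2 and Myc lower at -1.48, -1.05, -0.81, -0.72 and -0.46. Over all genes, 43.4% were called there, in libraries that also carried the other cells' markers. With the combination in B cells, 4 rose and 3 fell. Ppp1r15a (3.22), Tnfaip3 (1.44), Plk2 (1.23) and Zfp36l1 (0.78) rose, while Ier5l (-1.64), Sik1 (-0.74) and Dusp5 (-0.69) fell. Ppp1r15a measured 2097, 2015 and 3190.5 CPM with the combination, 1720.3, 1442 and 2677 CPM with MSA2, and 255, 259 and 268 CPM in Control B cells, so this gene responded in the same B cell libraries in which no member was called. In BMDC none of the list was called between the combination and MSA2, and in B cells 3 were higher and 8 lower. Of the heat shock list, 2 of 12 rose with MSA2 in B cells (Hspa1b at 1.51 and Hspa1a at 1.34) and 2 of 11 in BMDC (Dnajb4 at 1.07 and Dnaja1 at 0.27), with none lower.

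The members did not move as one. Over the 8 BMDC libraries, the correlation (Pearson's r) of each member with the mean of all members' standardized log2 levels ranged from -0.48 for Egr2 to 0.89 for Egr3, and over the 9 B cell libraries from -0.34 for Ier3 to 0.72 for Nr4a1. Outside the members, the genes with the most similar pattern to that mean were Utp15, Gmppb, Rrp15, Palld and Alyref in BMDC (r of 0.94 to 0.96) and Gm49909, Uxs1, Miga2, Maff and Cdk5 in B cells (r of 0.84 to 0.94). These values describe libraries that share treatment groups and depth, and carry no test.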

How the data were processed

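The authors deposited expected counts per gene, which in these files are whole numbers. The submitters' processing notes name RSEM 1.3.3, STAR 2.7.8a, cutadapt 4.8, FastQC 0.11.8, MultiQC 1.20 and the build GRCm38, without roles or order. Library strand and annotation release are not given in the sources used here. Expected counts divide reads that match several genes, so values of overlapping and near-identical genes are uncertain.

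The sample titles gave the groups, because Control is the treatment label of all 17 libraries, and the title suffix gave the replicate numbers. For each cell type, 1 model held 3 groups and was fitted with edgeR 4.0.16 in R 4.3.3, using TMM factors and genes kept by filterByExpr. The quasi-likelihood F test was adjusted by Benjamini-Hochberg over all genes tested. A gene was called at an adjusted p under 0.05. SE was taken from the fold change and its F statistic. A second model of all 6 groups tested how the responses of the cell types differed. The tests were checked on simulated counts with 200 changed genes. Once group means were subtracted, the 3 same-suffix pairs of combination and MSA2 B cell libraries had correlations of 0.23, 0.26 and 0.43. Combination replicate 2 with MSA2 replicate 1 had 0.20, and combination replicate 1 with MSA2 replicate 2 had -0.02. The pairing of replicates 1 and 2 is therefore uncertain. The main models held no block. In an alternative model the suffix was a block over all groups of a cell type, Control included. This pairing comes from the data and not from the labels. No 2 libraries were duplicates.

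Results were recomputed with RLE factors, upper quartile factors and unscaled totals, without a filter, and with genes kept at 1 CPM in 3 libraries. DESeq2 1.42.0, limma-voom (limma 3.58.1), models of only the compared groups, models with the suffix as replicate block, and models lacking 1 library each were also run. Positions and exon lengths came from GENCODE M21 on GRCm38. The members and gene lists were chosen with earlier results of these data known. All members are named, and of each other list up to 4 called genes with the largest fold change and called genes that went against the majority. Like genes were the 5 with the highest correlation at a mean of at least 5 CPM, on log2(CPM + 0.5).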

Additional observations from a re-analysis of the deposited data

Results flagged for a closer look

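Responses that differed between BMDC and B cells in the single fit of all groups are listed here with the log2 difference, BMDC minus B cells. For MSA2 against Control the differences were 2.49 for Fos, 2.77 for Egr1, 2.97 for Egr3 and 1.37 for Nr4a1, where the BMDC response was the higher one, and -1.94 for Egr2 and -2.31 for Ier3, where it was the lower one. For the combination against MSA2 they were -2.03 for Egr1, -2.80 for Egr3 and 3.29 for Ier3. The edgeR adjusted p-values ranged from 8.2e-08 for Ier3 in the combination against MSA2 to 0.0475 for Nr4a1. Cell type and library set cannot be told apart beyond these contrasts, since each cell type was sequenced under its own set of library numbers. All 9 differences involve the MSA2 libraries, and those of B cells carried 1036 to 1336 CPM of T cell markers and 1598 to 1675 CPM of neutrophil markers, whose part in the differences was not tested. The Egr1 difference for the combination against MSA2 was not called in 5 of 26 alternatives and the Nr4a1 difference in 16 of 26. Groups of 2 or 3 libraries were not tested for a single outlying library.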

How the results depend on the processing

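Members called ranged, when 1 library at a time was left out, from 3 to 7 for MSA2 against Control in B cells (7 with all), 0 to 1 for the combination against Control (0 with all), 2 to 3 for the combination against MSA2 (2 with all), 7 to 9, 4 to 7 and 0 to 2 for the same comparisons in BMDC (8, 5 and 0 with all), and 5 to 6, 0 to 1 and 2 to 4 for the differences between cell types (6, 0 and 3 with all). Dropping the filter on low counts gave 5 members for the combination against Control in B cells, 5 for the combination against MSA2 in BMDC, and 3 and 5 for the differences between cell types in the combination against Control and against MSA2. DESeq2 gave 3 and 1 in the first 2 of these comparisons. The cause was not tested. Over all genes, the combination against Control in B cells had 171 calls, 391 with DESeq2 and 359 without the filter; the combination against MSA2 in BMDC had 0, 162 and 561; and the cell type difference for the combination against Control had 539, 888 and 818. The replicate block gave 1 member for the combination against Control in B cells, Jun at 1.07 (edgeR adjusted p = 0.0488), against 0 without it; it also called Junb with MSA2 in B cells (-0.52, edgeR adjusted p = 0.0368), Fosb in the combination against MSA2 in B cells (0.50, edgeR adjusted p = 0.0316) and Junb in BMDC with the combination (-0.57, edgeR adjusted p = 0.0449). Between combination and MSA2 in B cells all 3 same-suffix pairs correlated above 0.1, with Control included 4 of 9 did (-0.03 to 0.43), and in BMDC 1 of 7 did (-0.15 to 0.11), so in all other comparisons the samples share only a number. B cell pairs of unlike suffix also correlated above 0.1, combination replicate 2 with MSA2 replicate 1 (0.20) and Control replicate 1 with MSA2 replicate 2 (0.14). Same-suffix pairs with Control reached at most 0.12. For 8 of 9 B cell libraries and 2 of 8 BMDC libraries, the most correlated library of another group carried the same suffix. These 8 count the 3 pairs of combination and MSA2 from both ends, and Control replicate 2 at a value of only 0.02. This is a weak hint from the data and not the design. Leaving out both treated B cell libraries of the third suffix, chosen after their values were seen, turned Egr2 with MSA2 to 0.35. It gave 3 members and 245 genes over all for the combination against Control, and 1 member and 561 genes for the cell type difference of that comparison. Of the member values under all alternatives, 1752 stayed on their side of the threshold with no called value changing sign, 59 passed it newly, 48 no longer passed and 1 reversed. Uncalled values near 0 did change sign, Jun in the combination against MSA2 in B cells in 7 of 19 alternatives, for example. In BMDC, Nr4a1 and Fosb were at most 4.89 CPM, which limits their precision, and the combination there rests on 2 libraries.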

Other observations

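In Control BMDC, replicate 3 held the highest level of Fos, Egr1, Egr3, Fosb and Nr4a1 among the 3 Control libraries, and replicate 1 the lowest. In Control B cells, replicate 1 held the lowest level of Fos, Fosb, Jun, Junb, Egr1, Egr2, Egr3, Nr4a1 and Ier2, and of these Egr1 spread most, with 59.7, 198 and 129 CPM. Within MSA2 in BMDC, replicate 1 held the highest level of Fos, Junb, Egr1, Egr3, Ier2 and Ier3, while replicate 2 held the highest level of Nr4a1, Fosb and Egr2. Jund, another Jun gene, measured 1453, 1367 and 2412 CPM with the combination, 788, 683 and 1657 CPM with MSA2, and 1299, 1422 and 1378 CPM in Control B cells, so replicate 3 of each treatment stood high in the same way as those of Jun and Junb. Jund was chosen here after its values were seen.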
